A study of Mus musculus with 16 samples.

Results

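CpG-poor sites that were unmethylated in both parental lines were taken from a target capture bisulfite sequencing experiment on mouse embryonic fibroblasts (MEFs). A CpG was a member when the deposited number of CpGs in 100 bp was 2 or less and when its methylation level was under 10% in both parental libraries. The methylation level is the percentage of reads at a CpG that were called methylated. The rule left 19762 members, which were 1.64% of the 1203687 CpGs in the series table, 11.2% of the 176465 CpG-poor CpGs and 4.73% of the 417752 CpGs that were low in both parents. Of the members, 13059 had a count of 2, 6671 a count of 1 and 32 a count of 0.

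The 2 parental lines, MEF-1 and MEF-2, came from sibling C57BL/6J embryos at E13.5 and were immortalised by serial passaging through crisis. From each parental line 7 clonal lines were grown, each from 1 sorted single cell, and each parental line is 1 library. A clonal line thus descends from 1 cell, and its level can also hold changes that arose during expansion. MEF-1 is male and MEF-2 female, so embryo and sex cannot be told apart, and no treatment or genotype separates the 16 libraries. The libraries held 59243669 to 90633091 calls, with a median coverage of 26 to 39 reads per CpG, and the members were covered by a median of 39 reads per library.

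In mammalian genomes most isolated CpGs are methylated, and most unmethylated CpGs lie in CpG islands at promoters. Away from islands, low methylation is known mainly at enhancers and at sites bound by transcription factors. CTCF, a zinc finger protein that binds DNA at domain boundaries and loop anchors, and AP-1, the dimer of Fos and Jun proteins that acts at fibroblast enhancers, are both known for such sites.

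Windows around 4 members are examples of sites beside a CTCF word and do not stand for all members. The 4 were the members closest to a transcript start of a listed lineage gene, 1 per gene, among those within 20 bp of the centre of a CTCF word and under 10% in all 14 clonal lines, outside exons and repeats and within 100 kb of the start. The CTCF word is a fixed core of the CTCF consensus, read on either strand, and capitals mark the member CpG and the word, which share letters in 3 of the windows. Of the 19762 members, 1041 lay within 20 bp of the centre of such a word, and 52.3% were under 10% in all 14 lines. The low clonal levels of the 4 members follow from that choice.

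Grhl2, chr15:37333970-37334051 (mm10, plus strand, intron, 1727 bp from the start): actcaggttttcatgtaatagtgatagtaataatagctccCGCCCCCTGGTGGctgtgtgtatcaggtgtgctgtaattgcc
Mef2c, chr13:83655031-83655112 (mm10, plus strand, intron, 2183 bp from the start): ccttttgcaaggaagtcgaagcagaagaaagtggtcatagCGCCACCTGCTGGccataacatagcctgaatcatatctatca
Myl9, chr2:156787835-156787916 (mm10, plus strand, intergenic, 12455 bp from the start): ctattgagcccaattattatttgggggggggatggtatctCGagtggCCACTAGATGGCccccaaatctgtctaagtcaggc
Sox17, chr1:4516707-4516788 (mm10, plus strand, intergenic, 19393 bp from the start): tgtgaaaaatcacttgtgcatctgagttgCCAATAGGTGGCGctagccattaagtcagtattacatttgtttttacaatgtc

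At the member beside Sox17, an endoderm transcription factor, the MEF-1 lines reached from 0 through a median of 0 to 4.08% and the MEF-2 lines from 0 through 0 to 4.26%. The member in Mef2c, a muscle and neural transcription factor, reached 3.70% in MEF-1 lines and 4.26% in MEF-2 lines, with medians of 1.54 and 0%. The member in Grhl2, a factor of epithelial genes, had the highest clonal mean of the 4 (2.66%), with clonal levels of up to 8.20%. Its levels in the MEF-1 and MEF-2 parents were 3.9 and 9.57%, while the Myl9 member was at 4.76% in the MEF-1 parent. None of these genes but Myl9, a myosin light chain, belongs to a fibroblast list.

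A second set of windows holds an AP-1 word, TGANTCA, centred within 95 bp of a member that is nearest to a gene of a fibroblast list. They were chosen by the same rule, with that wider distance in place of 20 bp, and 2 such windows are printed. The rule also picked the Myl9 member shown above, whose AP-1 word is 60 bp away. Capitals again mark the member CpG and the word.

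Col1a1, chr11:94869973-94870174 (mm10, plus strand, intergenic, 66151 bp from the start): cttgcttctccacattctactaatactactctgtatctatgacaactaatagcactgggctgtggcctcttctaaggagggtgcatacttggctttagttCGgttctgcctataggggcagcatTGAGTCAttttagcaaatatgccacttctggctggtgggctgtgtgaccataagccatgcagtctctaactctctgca
Twist2, chr1:91874763-91874964 (mm10, plus strand, intergenic, 73393 bp from the start): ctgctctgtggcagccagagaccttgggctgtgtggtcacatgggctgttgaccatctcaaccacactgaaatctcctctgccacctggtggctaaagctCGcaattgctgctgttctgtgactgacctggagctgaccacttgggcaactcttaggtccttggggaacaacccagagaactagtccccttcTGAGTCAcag

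The member nearest to Col1a1, a chain of type I collagen, was covered by at least 107 reads in every library, and its level was 1.68% ± 0.879 (SD, n = 14 lines). The member nearest to Twist2, a transcription factor of mesenchyme, whose window also holds a CTCF word, ran from 0 through a median of 0 to 4.08% in MEF-1 lines and from 0 through 2.17 to 5.41% in MEF-2 lines, below the parental levels of 7.02 and 5.80% in every line of its own family.

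The parental levels chose the members and are given as a description. Members averaged 2.70% in the MEF-1 parent and 2.74% in the MEF-2 parent, and 3691 members (18.7%) had no methylated read in either parent. Just inside the limit, 507 CpG-poor CpGs at 9 to 10% in the MEF-1 parent had a mean clonal level of 6.45%, and just outside it 501 at 10 to 11% had 7.33%. The corresponding values for the MEF-2 parent were 7.27% for 603 CpGs and 7.58% for 587 CpGs. On the other axis, low CpGs with a count of 2 had a mean clonal level of 3.30% and the 17604 with a count of 3 had 3.27%.

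The CpG count was checked against the reference sequence. Of the members, 94.2% had 2 or fewer other CpGs within 100 bp in the reference and 34.4% had none, while the highest number was 14. That limit is looser than the deposited one, as it gave 37709 members when density was counted in the reference. The mean deposited count of members was 1.66, beside a mean of 0.902 other reference CpGs. Over all CpGs, the deposited count equalled the number of reference CpGs within 100 bp, itself included, at 41.0%. No CpG is present in the reference at 69 of the member positions, among them all 32 with a count of 0, and the mean clonal level of these 69 was 0.173%.

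Comparisons used 2 other groups of CpGs. CpG-dense sites had a count of 10 or more and were also under 10% in both parents (245525 CpGs, mean parental levels of 1.76 and 1.59%). CpG-poor methylated sites had a count of 2 or less and were at 90% or more in both parents (48470 CpGs). The GC content of the CpG with 100 bp on each side averaged 44.9% at members, 44.4% at CpG-poor methylated sites and 62.6% at CpG-dense sites.

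The members lay mostly away from gene starts. Intergenic sequence held 9503 of them (48.1%), introns of protein-coding genes 7536 (38.1%), promoters 2069 (10.5%), exons outside coding sequence 463 (2.34%) and coding exons 191 (0.967%), where a promoter is the 1000 bp before a protein-coding transcript start. The median distance to the nearest start was 12984 bp, with quartiles of 1610 and 51948 bp. CpG-dense sites lay at a median of 235 bp and CpG-poor methylated sites at 14134 bp.

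The share of members in promoters was below that of CpG-dense sites (44.5%) on all 16 chromosomes, with a mean gap of -34.2 percentage points (SD 2.23; exact sign-flip test over 16 chromosomes, two-sided, p = 3.05e-05, the smallest it can give; Benjamini-Hochberg adjusted over 4 comparisons p = 4.07e-05). Counted within 500 bp on either side of a start the gap was -64.1 points. The promoter share of members was above that of CpG-poor methylated sites (4.18%) on all 16, by 6.17 points on average (SD 1.25, exact p = 3.05e-05, adjusted 4.07e-05). Distal members, more than 2000 bp from every protein-coding start and from every reference CpG with 10 or more others within 100 bp, numbered 12537 (63.4%). Only 539 CpG-dense sites were distal (0.220%), as the distance from dense reference CpGs in the definition leaves few of them eligible. Of the CpG-poor methylated sites 71.4% were distal, more than of the members on 15 of 16 chromosomes, with a mean gap of -7.72 points (SD 3.99, exact p = 6.1e-05, adjusted 6.1e-05). That gap was -3.39 points with a distance of 5000 bp and -14.2 points with density counted in the reference.

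Members were less often inside protein-coding genes than methylated sites of the same density. Gene bodies held 45.4% of the members and 64.9% of the CpG-poor methylated sites, and the gap of -19.5 points (SD 3.85) was negative on all 16 chromosomes (exact p = 3.05e-05). Repeats that are soft-masked in the reference held 7.86% of the members, 6.73% of the CpG-poor methylated sites and 1.74% of the CpG-dense sites.

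**Figure D1:**
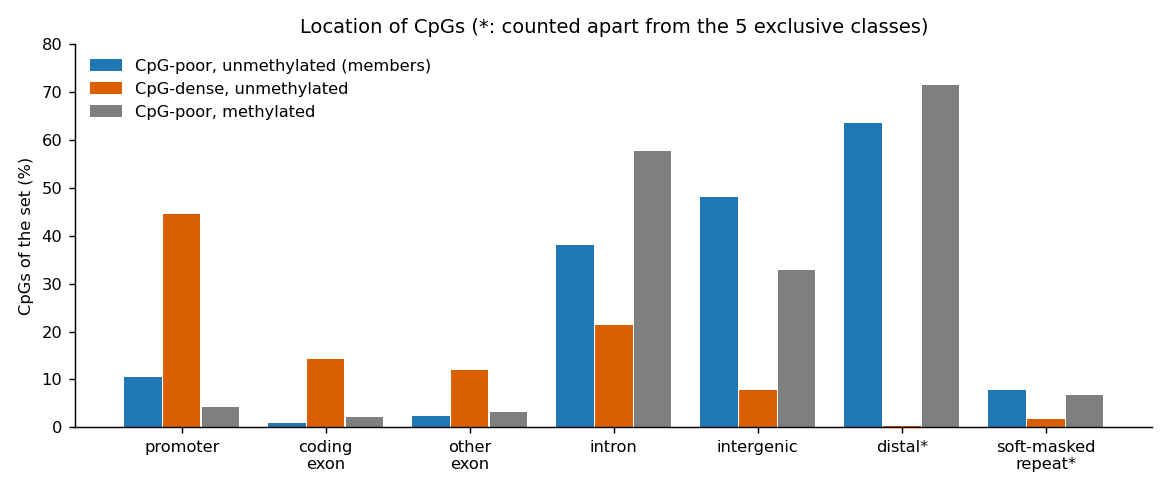
Bars give the percentage of each group of CpGs (vertical axis) in 5 exclusive classes and, counted apart, the percentage that was distal or in a soft-masked repeat. Members sat between the other groups in promoters (10.5%, against 44.5% of CpG-dense and 4.18% of CpG-poor methylated sites) and had the highest intergenic share (48.1%).

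Of 9 sequence words searched on both strands within 100 bp of each CpG, the CTCF word differed most in ratio among words found in more than 1% of windows. It lay beside 2008 members (10.2%), 1.52% of CpG-poor methylated sites, 1.88% of CpG-dense sites and 2.84% of all CpGs. Its share among members was higher than among CpG-poor methylated sites on all 16 chromosomes, from 8.02 to 12.0% against 1.27 to 1.89%, with a mean gap of 8.60 points (SD 1.02; exact sign-flip test, p = 3.05e-05; adjusted over the 9 words p = 0.000137). The gap was 11.5 points among distal CpGs alone. Among members with a CTCF word 82.6% were distal, against 60.7% of those with neither a CTCF nor an AP-1 word.

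The AP-1 word TGANTCA lay beside 1823 members (9.22%) and 5.93% of CpG-poor methylated sites, a mean gap of 3.41 points (SD 1.30) in the same direction on all 16 chromosomes (exact p = 3.05e-05, adjusted 0.000137). With C or G as the middle letter the shares were 6.29 and 3.65%. The TEAD word GGAATG, bound by the factors that YAP and TAZ act through, was found beside 13.2% of members and 10.6% of methylated sites (mean gap 2.48 points, SD 1.52, higher on 15 of 16 chromosomes, exact p = 9.16e-05, adjusted 0.000275). Both words thus differed by far less than the CTCF word, and 109 members held a CTCF and an AP-1 word.

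The other words did not separate the members as clearly. The RUNX word TGTGGT was at 16.1 against 15.7% (mean gap 0.402 points, SD 1.58, exact p = 0.321, adjusted 0.321) and the TWIST E-box CAGATG at 15.6 against 15.1% (0.494 points, SD 1.19, exact p = 0.117, adjusted 0.176). The POU octamer ATTTGCAT was at 1.52 against 1.31% (0.241 points, SD 0.649, exact p = 0.158, adjusted 0.198), and the word of the NFI family at 0.0304 against 0.00825% (exact p = 0.0469, adjusted 0.0844). The PU.1 word GAGGAAGT, of a blood factor, was lower among members, at 1.59 against 1.79% (mean gap -0.223 points, SD 0.331, exact p = 0.0172, adjusted 0.0386). A control word, ACTNAGT, with the letters of AP-1 in another order, was at 5.93 against 6.26% (mean gap -0.313 points, SD 0.886, exact p = 0.176, adjusted 0.198). Over the windows of all CpGs the shares were 5.04% for AP-1, 10.1% for TEAD, 12.5% for RUNX, 13.2% for the E-box, 0.946% for the octamer, 0.0218% for NFI, 1.59% for PU.1 and 4.15% for the control word. A word is a match of letters in a window and not a measured binding site.

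Against CpG-dense sites the shares among members were higher for all 9 words, the control word included (5.93 against 2.15%), beside a GC content that differed by as much as given above. The gap for the NFI word was within the spread between chromosomes (0.0304 against 0.0163%, exact p = 0.387). The part of base composition in these gaps was not tested.

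The share of CpG-poor CpGs that were members changed with the distance from a CTCF word in a wave. Within 20 bp of the centre of the word 57.1% of 1823 CpG-poor CpGs were members, between 60 and 80 bp 15.6% of 965, between 120 and 140 bp 27.7% of 1428, between 200 and 220 bp 4.54% of 1343 and between 300 and 320 bp 18.7% of 834. Beyond 1000 bp the share was 10.0% of 140097. The share was below the distant value from 200 to 280 bp, above it from 280 to 340 bp, and from 6.79 to 11.5% in the steps beyond.

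The mean level of the same CpG-poor CpGs over the 14 clonal lines ran opposite. The clonal lines descend from the parental lines whose levels set the share of members, so this course is not independent of that share. The mean clonal level was 21.8% within 20 bp of the word, 45.8% at 120 to 140 bp and 74.7% at 220 to 240 bp. It was 51% at 300 to 320 bp and 61.4% beyond 1000 bp. The parental lines had 22.9% (MEF-1) and 21.1% (MEF-2) within 20 bp and 76.8% and 74.2% at 220 to 240 bp. Around the AP-1 word the share of members was 15.6% within 25 bp and 11.2% beyond 1000 bp, with no further wave, and around the control word it was 11.3 and 11.5%. These profiles are descriptions over CpGs that share the same libraries and often the same word.

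**Figure D2:**
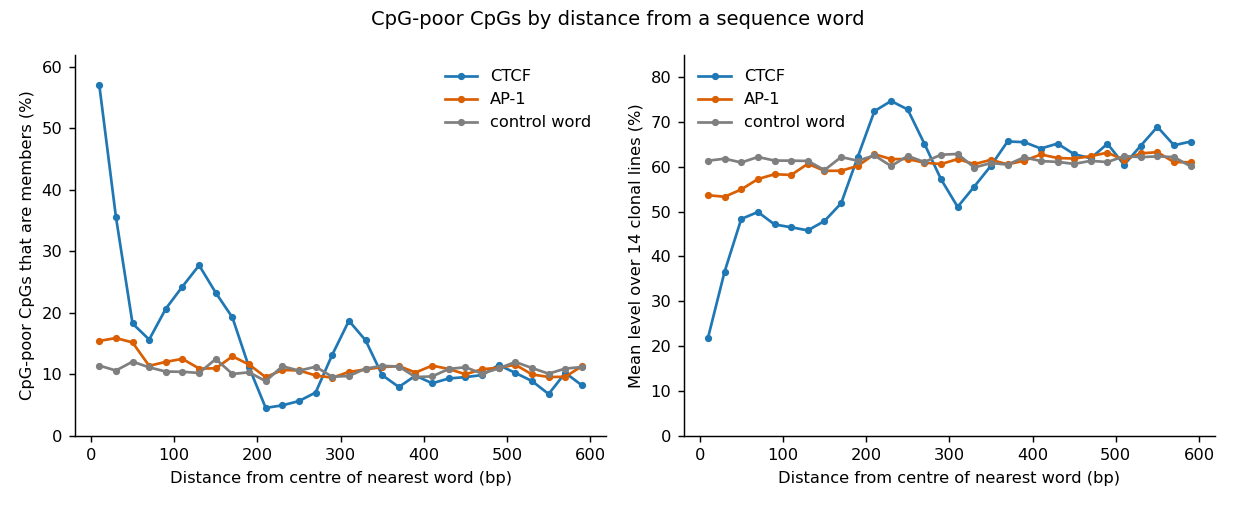
Left, percentage of CpG-poor CpGs that were members, and right, their mean methylation level over the 14 clonal lines, against the distance in bp from the centre of the nearest CTCF, AP-1 or control word, in steps of 20 bp. The CTCF curve starts at 57.1% members, peaks again at 120 to 140 bp (27.7%) and at 300 to 320 bp (18.7%) and falls to 4.54% at 200 to 220 bp, while the control word stays near 11%.

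The fibroblast lists did not stand above all other lists in members. For each list the CpG-poor CpGs nearest to the transcript starts of its genes, within 100 kb, were counted. Members made up 32 of 213 such CpGs (15%) for the fibroblast matrix list, 41 of 360 (11.4%) for fibroblast and mesenchyme regulators and surface proteins, and 38 of 323 (11.8%) for AP-1, TEAD and actin genes. The share over all 15129 genes was 11.1%. It was 19.5% for neural genes (26 of 133), 20% for skeletal muscle genes (23 of 115), 12.5% for blood genes (18 of 144), 11.4% for endoderm genes (15 of 132) and 4.68% for epidermis genes (8 of 171). The median over genes was 14.3% for the matrix list, 10.5% for regulators and surface proteins and 8.70% for AP-1, TEAD and actin genes. This median was 13.7% for neural, 14.6% for skeletal muscle, 11.7% for blood, 12.5% for endoderm and 1.56% for epidermis genes. Over all genes it was 2.86%, so the distance of the lists from all genes depends on the measure. As the rule used the parental levels, neither measure has a test.

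The labelled cell type was checked at the promoters of the same lists. Over CpGs within 500 bp of a start, the fibroblast matrix genes had a mean level of 3.39% in the MEF-1 parent and 2.81% in the MEF-2 parent, and the AP-1, TEAD and actin genes 4.97 and 3.84%. Blood genes had 29.3 and 27.1%, endoderm genes 42.8 and 36.0%, epidermis genes 28.1 and 21% and skeletal muscle genes 26.5 and 24.0%. Neural genes were low too, at 6.46 and 5.29%, and fibroblast regulators were at 17.2 and 16%. Over all genes the levels were 11.6 and 10.9%, so the fibroblast regulators lay above the value of all genes.

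Among matrix genes, Sparc, a secreted glycoprotein that binds collagen, had the most members, with 5 of 14 CpG-poor CpGs, all distal. Of these 5, 2 were low in all 14 lines, and their clonal means were 2.52% for MEF-1 and 3.57% for MEF-2 (SD over 7 lines 1.78 and 2.45). Col3a1, a chain of type III collagen, had 3 members of 4 CpG-poor CpGs in an intron, all low in every line, at 1.29% in MEF-1 and 1.30% in MEF-2. Col1a2 had 4 of 27, Col1a1 3 of 7, Serpinh1, a collagen chaperone, 2 of 6, and Mmp14, a membrane metalloproteinase, 2 of 7, both in its promoter.

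Among regulators and surface proteins, Snai2, a repressor of epithelial genes, had 9 members of 14 CpG-poor CpGs and Thy1, a surface protein of fibroblasts, 9 of 20. The Snai2 members averaged 2.51% in MEF-1 lines and 2.35% in MEF-2 lines, with 6 of 9 low in all lines. The Thy1 members were all distal and averaged 4.09 and 4.06%, with 3 of 9 low in all lines. Cd44, a hyaluronan receptor, had 7 of 31 members, of which 6 were low in every line, Pdgfra 3 of 19, Snai1 2 of 9 and Vim, an intermediate filament gene, 3 of 3.

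Among AP-1, TEAD and actin genes, Ccn1, a secreted target of YAP and TEAD, had 6 of 18, Wwtr1, the gene of TAZ, 4 of 9, Cald1, an actin-binding protein, 3 of 21, Fosl2, a Fos protein of AP-1, 3 of 22, and Cnn2, a calponin, 2 of 2. The Wwtr1 members had the highest clonal means of these, 4.00% for MEF-1 and 6.47% for MEF-2 (SD 3.82 and 4.86).

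Genes of other lineages had comparable numbers. Pax7, a factor of muscle stem cells, had 10 members of 22 CpG-poor CpGs and Myh3, an embryonic myosin, 7 of 15. Sox1 and Pax6, neural transcription factors, had 7 of 23 and 6 of 21, Ikzf1 and Pax5, lymphoid factors, 7 of 57 and 4 of 19, Sox17 3 of 13, and Grhl2 and Krt5, epidermal genes, 3 of 36 and 1 of 2. The Pax6 members had the highest MEF-1 clonal mean among the listed genes named here, 7.75% (SD 6.10 over 7 lines), and 3 of its 6 members were at 40% or more in at least 1 line.

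Most members were not joined to another member. When members next to each other in the table were joined into runs, with no other measured CpG between them and gaps of at most 500 bp, 11063 members (56.0%) were runs of 1, 3231 runs held 2, and 675 runs held 3 or more, with 2237 members (11.3%) among them. A low CpG with a count above 2 also ends a run, so short runs follow in part from the rule. For 18475 members the nearest measured CpG was within 500 bp. That CpG was also low in both parents for 50.6% of these, against 90.9% at CpG-dense sites, and it was at 50% or more in both parents for 11.4%. The nearest measured CpG lay at a median of 79 bp from a member, and the distance was not matched between the groups here.

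The run with the most members held 9 over 1190 bp on chromosome 6 (8510662 to 8511851), in the promoter and an intron of Glcci1, 152 bp from the nearest start. It had a pooled level of 1.34% in the MEF-1 parent and 1.67% in the MEF-2 parent, from 0.935 through a median of 1.5 to 6.82% in MEF-1 lines and from 0.713 through 1.62 to 3.40% in MEF-2 lines. No line reached 10% there.

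The next runs lay by Glud1, Zbtb37, Mef2d, She and Hist1h3g. The run of 7 in an intron of Glud1, a mitochondrial glutamate dehydrogenase, ran from 0 through a median of 1.53 to 3.89% in MEF-1 lines and from 1.08 through 2.00 to 14.8% in MEF-2 lines, where line 1 was the only one above 10%. The 6 members beside Hist1h3g, a histone H3 gene, ran from 0 through 0.549 to 2.48% in MEF-1 and from 0 through 0.939 to 11.4% in MEF-2, with line 5 above 10%. The runs of 6 by Zbtb37, Mef2d, a muscle and neural transcription factor, and She, an adaptor protein, stayed at or below 2.90, 5.50 and 5.81% in every line.

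The clonal lines, which the rule did not use, showed how far the low state was kept. The mean level over members was 3.31% ± 0.129 (SD, n = 7) in MEF-1 lines, from 3.16 through a median of 3.31 to 3.55%, and 3.19% ± 0.152 (n = 7) in MEF-2 lines, from 2.91 through 3.27 to 3.32%. The families overlapped, and their difference of 0.127 points was within the spread of the lines (exact permutation test of 7 against 7, two-sided, p = 0.127). At members with no methylated parental read the difference was 0.324 points (exact permutation p = 0.000583). Over all members 402843 of 12764138 clonal reads were methylated.

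CpG-dense sites of the same measured parental level were slightly lower. They were weighted to the members by bins of both parental levels and of parental coverage, and then averaged 2.81% in MEF-1 and 2.82% in MEF-2 lines. Before weighting, their mean parental levels were 1.76 and 1.59%, against 2.70 and 2.74% at members. Each parental level comes from 1 library, so read sampling remains in the matched levels. Its part in the gap between the groups was not tested. The members were higher by 0.435 points (SD 0.140) and in 14 of 14 lines (exact sign-flip test over lines, two-sided, p = 0.000122, the smallest it can give; adjusted over 3 measures p = 0.000183). This gap depended on the settings. With 1 CpG of each group per 1000 bp block it was -0.131 points (exact p = 0.0358), with reads pooled over CpGs it was 0.197, with at least 20 reads in every library 0.244, without promoters 0.188 and without weighting 1.01 points.

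By CpG count, low CpGs of like parental level showed a shallow and uneven course. The mean clonal level was 3.17% (SD 0.186 over 14 lines) at a count of 1, 3.30% (SD 0.144) at 2, 3.35% (SD 0.164) at 3, 3.11% (SD 0.129) at 6 to 7, 2.91% (SD 0.116) at 10 to 12 and 2.68% (SD 0.122) at 21 to 45. The highest bin was thus not the sparsest one.

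**Figure D3:**
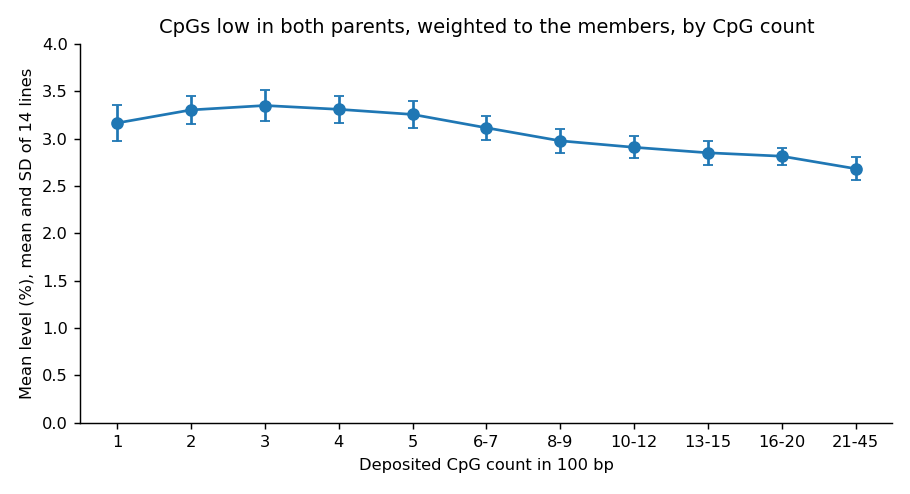
Mean methylation level in the clonal lines (points and bars, mean and SD of 14 lines) of CpGs low in both parents, weighted to the parental levels of the members, by deposited CpG count in 100 bp. The level is 3.17% at a count of 1, highest at a count of 3 (3.35%) and lowest at 21 to 45 (2.68%).

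The share of members that had left the low state, at 10% or more, was 7.29% ± 0.728 in MEF-1 lines and 6.87% ± 0.546 in MEF-2 lines (SD, n = 7 each). The weighted CpG-dense sites had 5.60 and 5.45%, and the members were higher in 14 of 14 lines, by 1.56 points (SD 0.388, exact p = 0.000122, adjusted 0.000183). With 1 CpG per block the gap was -0.161 points (exact p = 0.428), at 20 or more reads in every library 0.926, without promoters 0.891, without weighting 2.46 and after thinning to 10 reads 2.63 points. Sampling of reads at the clonal mean of each member and at its coverage would give 6.86 to 7.96% of members at 10% or more per line. The observed share was above the sampled one only in lines 5 and 7 of MEF-1. The clonal mean pools the reads of all 14 lines, the compared line and its gains included. The calculation therefore cannot show whether members left the low state more often than read sampling gives. For the weighted CpG-dense sites the same calculation, which takes in their lower clonal means, gives 5.96 to 6.76%.

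The share at 40% or more is less touched by read sampling. It ran from 0.238 through a median of 0.845 to 1.07% of members in MEF-1 lines and from 0.450 through 1.14 to 1.22% in MEF-2 lines, where read sampling gives 0.0138 to 0.0302%. In MEF-1, lines 1, 4 and 5 held 63, 47 and 73 such members and lines 2, 3, 6 and 7 from 167 to 212. In MEF-2, line 3 held 89 and the other lines 196 to 241.

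Against CpG-dense sites this share differed in opposite directions in the families. Members had 0.681% ± 0.357 in MEF-1 against 0.555% (gap 0.126 points, SD 0.0813, higher in 7 of 7 lines, exact p = 0.0156, the smallest 7 lines can give). In MEF-2 they had 1.04% ± 0.273 against 1.25% (gap -0.205 points, SD 0.119, lower in 7 of 7 lines, exact p = 0.0156). The gaps differed by 0.331 points between families (exact permutation test, p = 0.000583, adjusted over 3 measures 0.00175), and over all 14 lines the gap was -0.0392 points (SD 0.198, exact p = 0.464, adjusted 0.464). Without weighting it was 0.330 points for the MEF-1 lines and 0.318 for the MEF-2 lines, and at CpGs with no methylated parental read 0.120 and 0.139, so that the opposite signs and the family difference were not found under those settings. The sign in each family also depended on other settings. With 1 CpG per 1000 bp block the gap of the MEF-1 lines turned to -0.257 points beside -0.864 for the MEF-2 lines, and with CpG-dense sites from a count of 20 they were 0.229 and 0.00230. At 20 or more reads in every library they were 0.0321 and -0.408, and without promoters 0.0104 and -0.484.

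**Figure D4:**
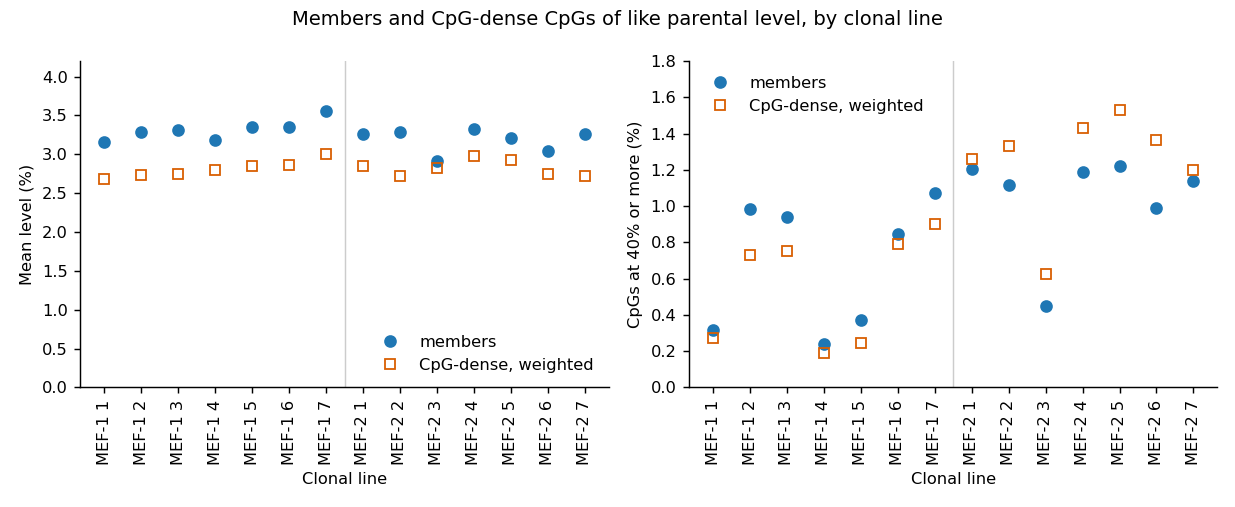
Mean methylation level (left) and percentage of CpGs at 40% or more (right) for members (filled circles) and weighted CpG-dense sites (open squares) in each of the 14 clonal lines. Members are higher in level in every line, while on the right they are above the CpG-dense sites in all MEF-1 lines and below them in all MEF-2 lines, and MEF-1 lines 1, 4 and 5 and MEF-2 line 3 sit lowest.

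Across lines, 10326 members (52.3%) were under 10% in all 14, against 62.5% of weighted CpG-dense sites. This share depends on depth, and was 8.01% of members after thinning to 10 reads, where 1 methylated read reaches the limit. The mean level over lines was under 5% at 16131 members (81.6%) and 20% or more at 54, with a maximum of 35.9%. At 40% or more in at least 1 line were 1754 members (8.88%). Of these, 1326 were so in 1 line only, 582 in MEF-1 lines only, 1027 in MEF-2 lines only and the rest in lines of both families. In MEF-1 the combinations shared by most members were lines 2, 3 and 7 (30 members), 3 and 7 (24) and 2 and 7 (17). Only 17 members were at 90% or more in any line.

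Most values at 40% or more were intermediate. Of 2387 such values of a member in a line, 2059 (86.3%) were under 60%, the median was 48.1%, and 47 (1.97%) were 80% or more. Counting only values on at least 20 reads, MEF-2 lines had 0.850% of members at 30 to 40%, 0.571% at 40 to 50%, 0.311% at 50 to 60% and 0.0811% at 60 to 70%, with no separate peak near 50%. The weighted CpG-dense sites of the same lines had 0.622, 0.642, 0.429 and 0.120% in these steps, and so were slightly higher at 40 to 50% than at 30 to 40%. In MEF-1 lines the members had 0.619, 0.353, 0.199 and 0.0511% and the CpG-dense sites 0.397, 0.266, 0.191 and 0.0635%.

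The neighbours of members at 40% or more were examined in the same lines. Where the nearest measured CpG lay within 100 bp and was low in both parents, it was also at 40% or more in that line for 41 of 533 values (7.69%). Over all members with such a neighbour, whatever their own level, the neighbour was at 40% or more for 0.107 to 1.04% per line. At members at 40% or more, the share per line was 7.08% ± 7.08 (SD, n = 14), and for CpG-dense sites at the same distances it was 4.31% ± 1.78 (gap 2.77 points, SD 6.91, exact sign-flip p = 0.161). By family it was 3.11% against 3.56% at CpG-dense sites in MEF-1 (7 lines, exact p = 0.875) and 11.1% against 5.06% in MEF-2, on 187 and 346 values (7 lines, exact p = 0.0781). Without matching of the distance the share at CpG-dense sites was 5.24 to 10.5% per line in MEF-1 and 12.4 to 15.8% in MEF-2, above the mean of the members in both families, so that the direction of the gap depends on the matching in MEF-2 and not in MEF-1. Of the 675 runs of 3 or more members none had a pooled level of 40% or more in any of the 14 lines. The highest was 38.2%, at 3 members on chromosome 15 (71375896 to 71376089), 350645 bp from the start of Fam135b, in MEF-2 line 5, where the parents had 1.43 and 5.47%. Of the 3231 runs of 2, 33 (1.02%) reached 40% in a line, and of the 11063 single members 1211 (10.9%) did, on fewer pooled reads.

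Members differed among themselves in the same lines. After weighting to the same parental levels, members with a CTCF word had a lower clonal level than members without one in 14 of 14 lines, 2.85% ± 0.147 against 3.03% ± 0.166 (SD, n = 14; gap -0.183 points, SD 0.122, exact p = 0.000122, adjusted over 15 comparisons among members p = 0.000366). Their share at 10% or more was also lower in every line, 5.68 against 6.34% (gap -0.656 points, SD 0.352, adjusted exact p = 0.000366). The level of members with an AP-1 word was 3.15 against 3.20% (gap -0.0509 points, SD 0.182, adjusted exact p = 0.357), a gap within the spread of the lines, while fewer were at 40% or more, 0.623 against 0.848% (lower in 11 of 14 lines, SD of the gap 0.297, adjusted exact p = 0.0214).

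Distal members were at 10% or more in a line more often than promoter members, 7.53 against 6.35% (higher in 13 of 14 lines, gap 1.18 points, SD 1.09, adjusted exact p = 0.00706). They were at 40% or more less often, 0.802 against 1.10% (gap -0.298 points, SD 0.442, lower in 9 of 14 lines, adjusted exact p = 0.0386). Members whose nearest measured CpG was at 50% or more in both parents were higher than members with a low neighbour in all 14 lines, 3.96% ± 0.267 against 3.19% ± 0.0988 (gap 0.771 points, SD 0.230, adjusted exact p = 0.000366). Members in soft-masked repeats were lower than the other members in all 14 lines, 3.15 against 3.33%, a gap of -0.181 points (SD 0.114, adjusted exact p = 0.000366) beside -0.183 for the CTCF word, and fewer were at 40% or more, 0.731 against 0.948% (gap -0.216 points, SD 0.182, lower in 13 of 14 lines, adjusted exact p = 0.00061). These 15 comparisons were chosen after the values of the members had been seen. With a CTCF word within 100 bp 33.7% of CpG-poor CpGs were members, and without one 10.4%. Each parental level comes from 1 library, so read sampling remains in the levels matched here. Its part in these gaps was not tested, and the 15 comparisons were not repeated with 1 CpG per 1000 bp block.

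The scores that the study assigns to each CpG were also compared, and they rest on the same 14 lines. The fidelity score, the share of the 14 lines at 0 to 10%, 40 to 60% or 90 to 100%, averaged 0.941 at members and 0.956 at weighted CpG-dense sites and was 1 at 11028 members (55.8%). The score of similarity to the neighbour counts lines whose nearest CpG differed by at most 10 points, as a share of 14, and averaged 0.634 and 0.921. The distance to the nearest CpG was not matched for this score. The variance between lines beyond read sampling, as a share of its largest possible value, was 0.0755 (jackknife SE 0.00629) at members and 0.0686 (SE 0.00656) at CpG-dense sites in MEF-1, and 0.112 (SE 0.00737) and 0.127 (SE 0.00923) in MEF-2.

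A quasi-binomial model over all CpGs, with family as its term, called 525 members (2.66%) as different between MEF-1 and MEF-2 clonal lines at an adjusted p under 0.05, of which 351 were higher in MEF-1 and 174 in MEF-2. Calls numbered 225 after thinning to 10 reads, 284 without lines 1, 4 and 5 of MEF-1 and 962 with no lower limit on the dispersion. Over all 1203687 CpGs 20.2% were called, 11.6% higher in MEF-1 and 8.53% higher in MEF-2. Among weighted CpG-dense sites 1.73% were called and among CpG-poor methylated sites 3.71%. The median difference of the called members was 8.61 points, and 72 differed by 20 points or more. The rule held the parents of both families under 10%, so nothing is read from the lower share.

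The 6 members with the largest differences in each direction are described with no test of their own, since they were picked on this contrast. Several rest on few reads, with as few as 10 in a library at Gm7347 and 11 at Chrm3 and Ptger3. In MEF-1 they lay nearest to Acvr2a, Chrm3, Gm7347, Map4k3, Defb8 and Ndufb6, and in MEF-2 to Prdm12, Srgn, Stk25, 1700011L22Rik, Ptger3 and Daw1. The windows of the leading member in each direction follow, with the member CpG in capitals.

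Acvr2a, chr2:47295887-47295968 (mm10, plus strand, intergenic): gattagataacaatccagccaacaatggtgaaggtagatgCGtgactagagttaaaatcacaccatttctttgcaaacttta
Prdm12, chr2:31637300-31637381 (mm10, plus strand, intergenic, 2697 bp from the start): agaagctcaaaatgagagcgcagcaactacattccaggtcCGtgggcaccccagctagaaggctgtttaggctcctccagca

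The CpG nearest to Acvr2a, an activin receptor gene whose start is 1518182 bp away, was at 27.9% in the lowest, 40% in the median and 60.4% in the highest MEF-1 line, while the MEF-2 lines ran from 0 through 0 to 5.77%. The groups did not overlap (41.4% ± 10.4 against 1.34% ± 2.14, SD, n = 7 each), although the MEF-1 parent was at 5.45% on 55 reads. The CpG 2697 bp from Prdm12, a factor of sensory neurons, ran from 0 through 41.7 to 75.0% in MEF-2 lines and from 0 through 0 to 4.55% in MEF-1 lines, with line 1 of MEF-2 at 0%. Its difference, MEF-1 minus MEF-2, was -45.0 points, and the MEF-2 parent was at 5.71% on 35 reads.

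In the promoter of Srgn, the gene of the proteoglycan serglycin, the CpG 70 bp from the start was at 0% in all 7 MEF-1 lines and from 2.63 through 35.0 to 76.9% in MEF-2 lines. The CpG 1170 bp from the start of Map4k3, a kinase gene, in its intron, ran from 6.67 through 33.3 to 62.5% in MEF-1 lines and up to 3.23% in MEF-2 lines. The intergenic CpG nearest to Stk25, another kinase gene, ran from 18.8 through 52.6 to 57.7% in MEF-2 and from 0 through 4.55 to 8.33% in MEF-1. The families did not overlap at Acvr2a, Chrm3, Map4k3, Srgn and Stk25. They overlapped at the other 7 named members, and at Daw1, an assembly factor of ciliary dynein, line 2 of MEF-1 at 42.9% lay inside the MEF-2 range of 30.8 to 64.3%.

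**Figure D5:**
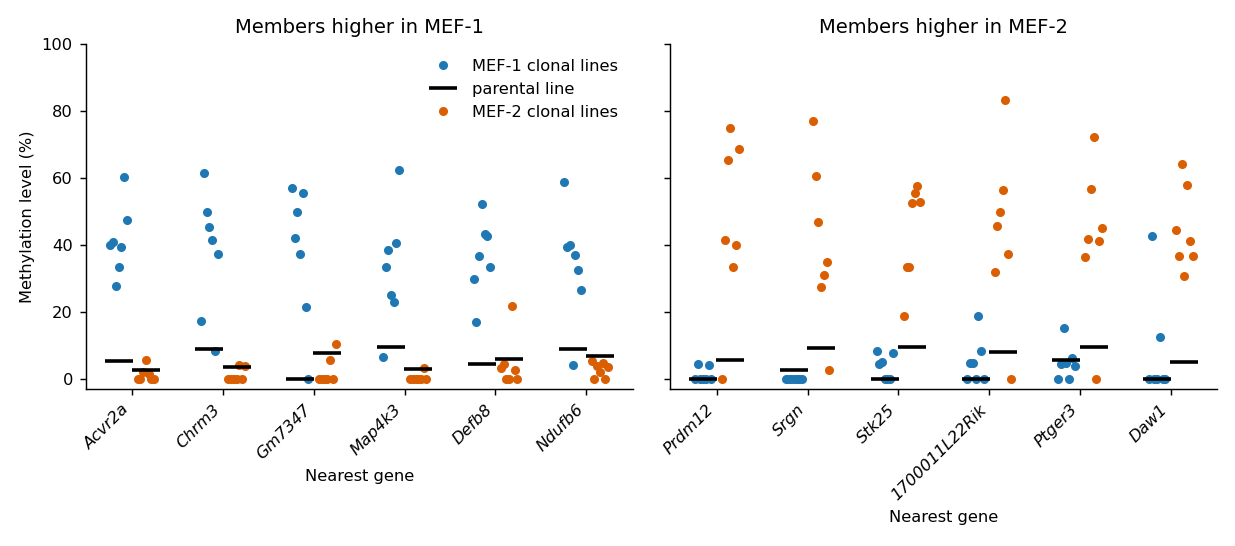
Methylation level (vertical axis) of the 12 named members in the 7 clonal lines of each family (coloured points) and in the parental line of each family (black bars), left for those higher in MEF-1 and right for those higher in MEF-2. Every parental bar is under 10%, as the rule sets, while the median of the higher family lies between 33.3 and 52.6%.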

How the data were processed

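Target capture bisulfite sequencing covered 16 libraries of parental and clonal MEF lines. The authors trimmed reads with Trim Galore 0.6.0, aligned them to mm10 with Bismark and merged both strands of each CpG, and the labels name R 3.6.1. The deposited library files hold counts of methylated and unmethylated reads per position, not normalised. The deposited series table holds them again for the CpGs that reached 10 reads in each of the libraries, on 16 chromosomes, and adds the authors' fidelity and neighbour similarity scores, each a fraction of the 14 lines, and a count of CpGs in 100 bp. Deposited coverage counts and methylated percent values per sample follow from the read counts. Removal of PCR duplicates is not stated, so intervals from counts cover counting error only.

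Levels in percent were computed from the counts. Transcript starts and exons came from GENCODE M21, sequence from RefSeq GRCm38.p6. CpG-dense sites were weighted to the members over 5 bins of each parental level and 5 bins of summed parental coverage. Lines were compared by exact sign-flip tests and families by exact permutation of 7 against 7 lines, with Benjamini-Hochberg adjustment. The clonal lines of a family are separate clones of 1 parental line, so p-values describe the spread between clones of these 2 embryos. The quasi-binomial F-test used all CpGs with a dispersion of at least 1, and on simulated counts for 20000 CpGs it recovered 194 of 200 differences of 40 points and called 3 of 19800 unchanged CpGs. Smaller differences, such as the median of 8.61 points among the called members, were not simulated. Named genes were the 6 largest runs, the 6 called members with the largest difference in each direction, and the listed genes with most members, 6 per fibroblast list and 2 per other list. Some genes that this rule names are not reported here. Runs of 3 or more members at 40% or more in a line were also to be named, and none existed. Alternatives covered weighting, density, parental limit, coverage, thinning to 10 reads, lines, blocks and promoters. The members and lists were chosen with earlier results of these data known. No column of another sample was found (0 columns). Python 3.11.15 was used with numpy 2.4.6, scipy 1.17.1, pandas 2.3.3 and matplotlib 3.10.9.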

Additional observations from a re-analysis of the deposited data

Results flagged for a closer look

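The gap between members and CpG-dense sites in the share of CpGs at 40% or more differed between the families, by 0.331 points (exact permutation test, p = 0.000583), with the dependence on weighting given in the report.

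Within a family of 7 lines, 1 line stood apart from the others at the following values, by a limit that chance passes in about 1 of 20 groups of normally distributed values. For single CpGs it is passed more easily, since any 1 line above 0 passes it where the other 6 are at 0, as at Map4k3 and Sox17. The share of members at 40% or more was 0.450% in line 3 of MEF-2. The Glcci1 run was at 6.82% in line 6 of MEF-1, the Glud1 run at 14.8% in line 1 of MEF-2 and the Hist1h3g run at 11.4% in line 5 of MEF-2. Among single members in MEF-1 lines, the CpG nearest to Ptger3, a prostaglandin E receptor gene, was at 15.2% in line 3, that nearest to Daw1 at 42.9% in line 2 and that in Grhl2 at 8.20% in line 7. In MEF-2 lines, the CpG nearest to Acvr2a was at 5.77% in line 4, Map4k3 at 3.23% in line 6, Defb8, a beta-defensin gene, at 21.7% in line 5 and Sox17 at 4.26% in line 5.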

How the results depend on the processing

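Of the alternatives for the clonal level gap, 24 kept its direction and call, and without each line in turn it lay between 0.425 and 0.461 points. With 1 CpG per 1000 bp block it reversed to -0.131 points, and the gap in the share at 10% or more to -0.161 points. The cause was not tested. The gap in the share at 40% or more over all 14 lines (-0.0392 points) changed sign without weighting (0.324), with density from the reference (0.0552), with dense sites from a count of 20 (0.115), at 0 methylated parental reads (0.130), with parents under 5% (0.0852) and after thinning to 10 reads (0.183), and it passed the threshold at 20 or more reads (-0.188), with 1 CpG per block (-0.561) and without promoters (-0.237), so that no direction can be given for it. Of the settings with the other sign, all but the reference density (exact p = 0.245) passed the threshold as well, with exact p from 0.000122 to 0.0217. Its family difference was 0.0121 points without weighting and -0.0191 at 0 methylated parental reads.

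The family difference in member level became 0.324 points (exact permutation p = 0.000583) at 0 methylated parental reads, and lay between 0.0809 and 0.153 points without each line. Same-numbered lines did not deviate together (correlation -0.137), and with the replicate number as a block the difference was 0.127 points with an exact sign-flip p of 0.156. Members low in all 14 lines were 8.01% after thinning to 10 reads, where 1 methylated read reaches the limit. Members called between families were 225 after thinning, 284 without lines 1, 4 and 5 of MEF-1 and 962 with no lower limit on the dispersion. Promoter, distal and AP-1 gaps kept direction and call under their alternatives, with the changes in size given in the report, and so did the CTCF gap under 6 alternatives chosen after seeing the data, one of which left out CpGs absent from the reference. Capture probes, and not the genome, set which CpGs were measured, and with a median of 39 reads a level under 10% rests on at most a few methylated reads.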
